A study of Mus musculus with 15 samples.

Results

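CXC chemokines are small secreted proteins that guide leukocytes, and 8 mouse genes that call neutrophils or T cells were followed here among the 51763 genes of the count table. They were taken by name as listed and matched to their Ensembl rows on genome build GRCm38. The group holds 4 ligands of CXCR2 (Cxcl1, Cxcl2, Cxcl3 and Cxcl5), 3 ligands of CXCR3 (Cxcl9, Cxcl10 and Cxcl11) and the CXCR6 ligand Cxcl16. All 8 were among the 16919 genes with enough counts to be tested. Cxcl5 and Cxcl11 passed that filter only through stimulated libraries, so a difference from PBS was built into their passing. Cxcl3 was sparse outside those libraries, with 17 counts in PBS.

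The libraries came from bone marrow-derived macrophages (BMDMs) of wild-type female C57BL/6NTac mice aged 8 to 10 weeks, that is, marrow cells matured in culture with M-CSF, the growth factor that drives macrophage development. Each of 5 conditions was sequenced as 3 libraries after 24 h. The control cells received PBS. Cells labelled frHMGB1 received 5 µg/mL of the fully reduced form of HMGB1, a nuclear DNA-binding protein that acts as an alarm signal once released, and cells labelled dsHMGB1 received 5 µg/mL of its disulfide form. LPS cells received 1 µg/mL of lipopolysaccharide, the outer-membrane lipid of Gram-negative bacteria. LPS/IFNγ cells received lipopolysaccharide with 20 ng/mL of interferon-γ, with the lipopolysaccharide given as 1 µg/mL in one label and as 100 ng/mL in the protocol text. The part of interferon-γ and of a lower lipopolysaccharide dose therefore cannot be told apart between LPS/IFNγ and LPS. The 2 HMGB1 forms came from different laboratories, so isoform and preparation cannot be told apart either. By the study's methods the reduced form was made in buffers with DTT, a reducing agent, and the disulfide form without it, while the labels' wording can be read as naming both forms free of DTT. A part of DTT in frHMGB1 against PBS, or between the 2 forms, cannot be told apart from that of the protein. By the study's methods, matured macrophages of 5 mice were mixed before plating, and the 3 libraries of a condition are technical replicates. The p-values below thus measure the spread between cultures and libraries, not between animals.

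As background, the CXCR2 ligands carry a Glu-Leu-Arg motif before their first cysteines and are the main signals that draw neutrophils out of the blood. Their genes are classical targets of NF-κB, the transcription factor switched on by Toll-like receptors such as the lipopolysaccharide receptor TLR4. The CXCR3 ligands lack that motif, attract activated T helper 1 cells, CD8 T cells and NK cells, and are named interferon-inducible chemokines, since they answer interferon-γ or the type I interferons. CXCL16 is unusual in being made as a membrane-anchored protein that also binds oxidised lipoprotein, and it is shed as a soluble ligand for CXCR6 on T and NKT cells.

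The genes lie in 3 places of the mouse genome (GENCODE M21, GRCm38). The CXCR2 ligands form a cluster on the plus strand of chromosome 5, with Cxcl5 at chr5:90759360-90761624, Cxcl3 at chr5:90786103-90789600, Cxcl1 at chr5:90891241-90893115 and Cxcl2 at chr5:90903871-90905938. The CXCR3 ligands form another cluster on the minus strand of that chromosome, with Cxcl9 at chr5:92321347-92328079, Cxcl10 at chr5:92346638-92348889 and Cxcl11 at chr5:92359544-92365485. Cxcl16 stands alone at chr11:70453983-70459984 on the minus strand. Cxcl11 is annotated as a polymorphic pseudogene, a gene whose reading frame is broken in the reference strain and intact in others, and the other 7 members are annotated as protein coding.

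The 250 bases before the RefSeq transcription start (GRCm38.p6) are shown for 5 members, since the levels of both classes are compared below and these windows show what the genes have in common upstream. Capitals mark matches to a κB motif (GGG, 3 bases of any kind, then TTCC), an interferon-stimulated response element (ISRE, GAAA, 2 bases of any kind, then GAAA), a γ-activated site (GAS, TTCNNNGAA) or a TATA box (TATAAA), searched on both strands, with overlapping matches run together. The windows of Cxcl1 and Cxcl2 end inside the GENCODE gene models, which start before the RefSeq ones.
Cxcl1, plus strand, chr5:90890995-90891244: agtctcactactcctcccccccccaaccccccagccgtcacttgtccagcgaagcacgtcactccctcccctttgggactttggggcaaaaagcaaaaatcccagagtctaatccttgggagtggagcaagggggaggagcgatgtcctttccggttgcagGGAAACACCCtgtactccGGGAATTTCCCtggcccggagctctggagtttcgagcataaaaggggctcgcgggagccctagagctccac
Cxcl2, plus strand, chr5:90903649-90903898: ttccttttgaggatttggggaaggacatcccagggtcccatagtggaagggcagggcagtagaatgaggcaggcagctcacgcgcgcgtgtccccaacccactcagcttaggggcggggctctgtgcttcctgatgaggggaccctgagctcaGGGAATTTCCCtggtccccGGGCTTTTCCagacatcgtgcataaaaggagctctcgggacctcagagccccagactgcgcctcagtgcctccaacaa
Cxcl3, plus strand, chr5:90785851-90786100: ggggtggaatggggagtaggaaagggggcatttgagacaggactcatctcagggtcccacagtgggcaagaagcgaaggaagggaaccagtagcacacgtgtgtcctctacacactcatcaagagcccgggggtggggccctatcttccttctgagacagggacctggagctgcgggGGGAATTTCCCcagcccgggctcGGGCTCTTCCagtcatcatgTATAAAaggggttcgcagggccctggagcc
Cxcl9, minus strand, chr5:92328080-92328329: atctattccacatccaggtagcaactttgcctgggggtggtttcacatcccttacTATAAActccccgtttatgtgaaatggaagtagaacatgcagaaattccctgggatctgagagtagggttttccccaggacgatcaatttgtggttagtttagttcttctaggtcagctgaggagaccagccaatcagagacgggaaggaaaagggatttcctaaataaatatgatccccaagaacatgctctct
Cxcl10, minus strand, chr5:92348890-92349139: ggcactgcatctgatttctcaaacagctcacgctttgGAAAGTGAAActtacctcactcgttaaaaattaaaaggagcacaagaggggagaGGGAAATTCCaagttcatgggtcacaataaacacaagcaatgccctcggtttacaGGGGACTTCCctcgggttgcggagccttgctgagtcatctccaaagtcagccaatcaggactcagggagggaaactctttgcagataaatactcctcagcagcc

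Cxcl1, Cxcl2 and Cxcl3 shared one arrangement. Each held a κB match that reads on both strands, first base at -71 in Cxcl1, -97 in Cxcl2 and -73 in Cxcl3, with another κB match within 25 bases of it. Cxcl10 held κB matches at -159 and -104 and the single ISRE match of the 5 windows, at -213. Cxcl9 held no match to the κB, ISRE or GAS letters in this window, only TATAAA at -195. Among 32851 promoter windows of the same length, 4.65% held the κB letters, 2.98% the ISRE, 7.02% the GAS and 12.4% the TATA letters. A match is a stretch of letters and no evidence of binding, and a window without one says nothing of elements further away.

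**Figure D1:**
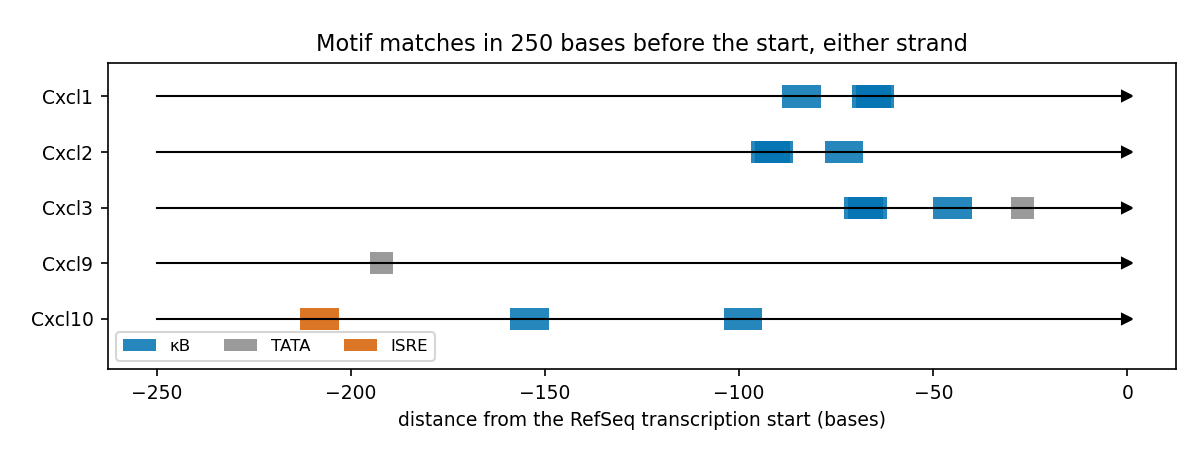
Motif matches in the 250 bases before the RefSeq start of 5 CXC chemokine genes, plotted by distance from the start in bases (arrowhead: the start), with κB matches in blue, ISRE in orange and TATA in grey. The κB matches of Cxcl1, Cxcl2 and Cxcl3 sit within 100 bases of the start, those of Cxcl10 at -159 and -104.

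The 15 libraries held 40934540 to 80925478 counts. PBS replicate 3 stood apart, with correlations of 0.934 and 0.939 to the other PBS libraries against 0.987 to 0.993 for every other pair within a condition, and the values of the 8 genes and of the gene lists that rest on it are given below with and without it. All 8 macrophage markers (among them Csf1r, Adgre1 and Lyz2) were detected, at a summed 13158 to 27352 CPM, that is, counts scaled to the library total. This sum differed by condition, at 21745 to 26252 CPM in PBS and 27069 to 27352 with frHMGB1. It was 18420 to 19663 with dsHMGB1, 14907 to 15530 with LPS and 13158 to 13465 with LPS/IFNγ. Neutrophil markers summed to 2.01 to 5.65 CPM, with S100a9, Ly6g and Mpo at 0 counts in every library, and B cell markers reached at most 0.861 CPM. T cell markers summed to 0.334 to 0.514 CPM in PBS and frHMGB1 and to 169 to 182 CPM in LPS/IFNγ, carried by the kinase gene Lck, while the defining Cd3d, Cd3e and Cd3g stood at 0 counts in all libraries. The part of these marker changes in the results below was not tested. Fibroblast markers summed to 118 to 282 CPM, dendritic cell markers to 3.35 to 14.95 CPM, highest in LPS/IFNγ, and erythroid markers to at most 0.0356 CPM. In bulk libraries, fewer cells of a type and less RNA per cell cannot be told apart.

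At rest the chemokines were sparse apart from Cxcl16. Together the 8 genes took 0.0206% to 0.0374% of all counts in the PBS libraries and 0.0275% to 0.0290% with frHMGB1. They took 0.464% to 0.550% with dsHMGB1, 0.873% to 0.897% with LPS and 1.12% to 1.15% with LPS/IFNγ. Per kb of exon, Cxcl9 ranked 13 and Cxcl10 ranked 19 in LPS/IFNγ, among 29023 annotated genes with counts in any library. In LPS, Cxcl10 ranked 14 and Cxcl2 ranked 46.

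**Figure D2:**
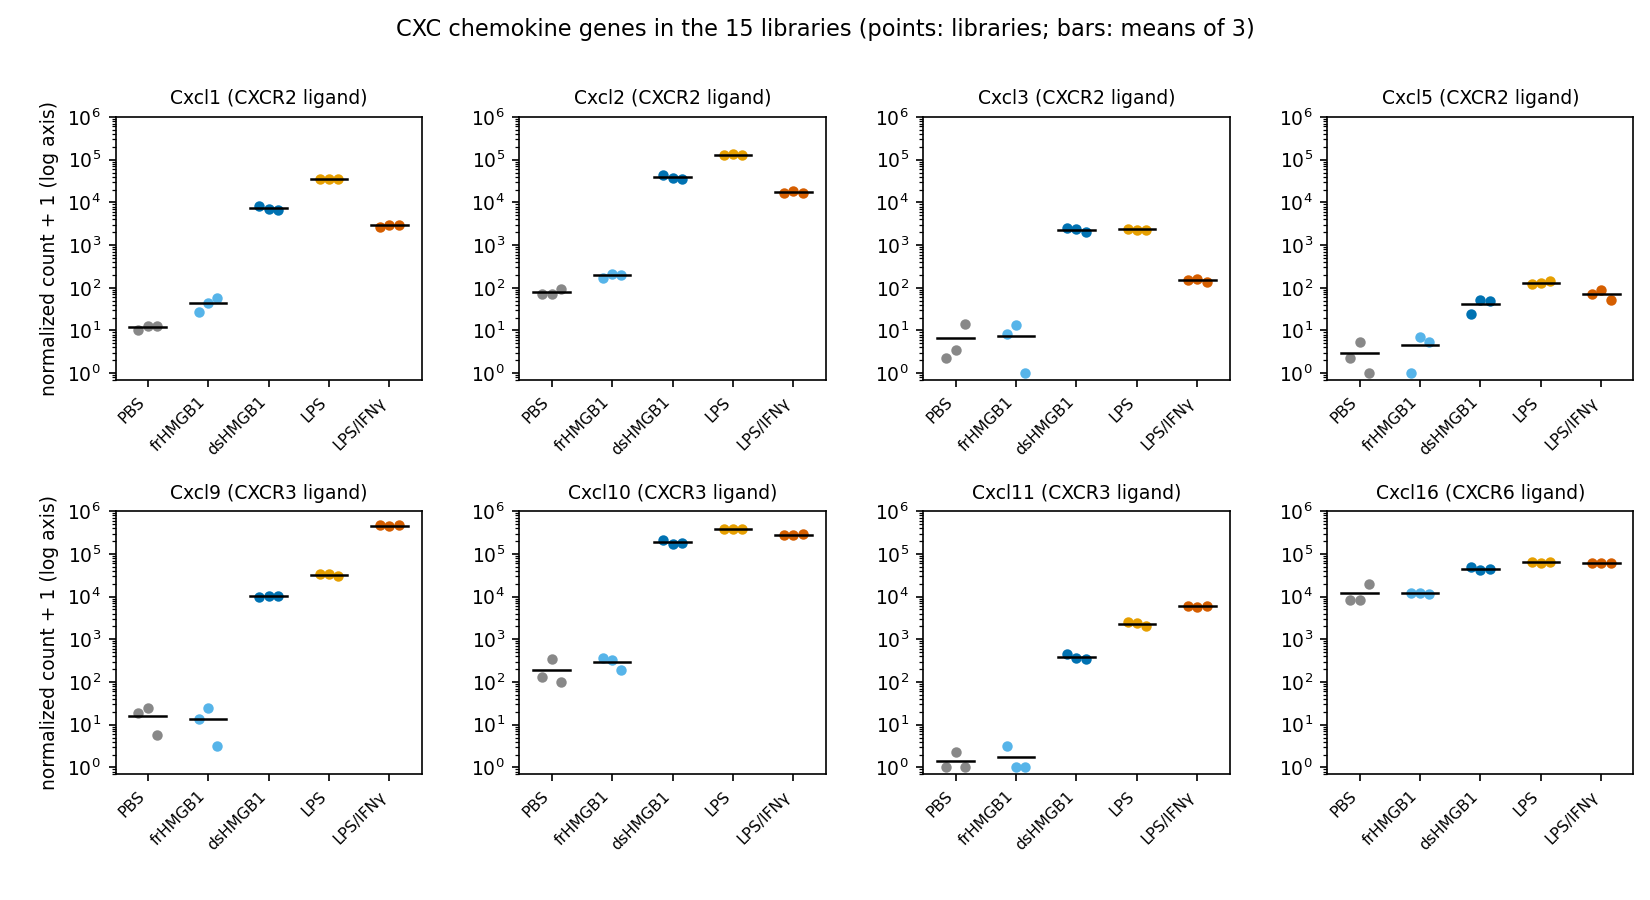
Normalized counts plus 1 of the 8 CXC chemokine genes in the 15 libraries, on a log axis (points: libraries, bars: means of 3). Cxcl1, Cxcl2 and Cxcl3 stand lower in LPS/IFNγ than in LPS, Cxcl9 and Cxcl11 stand higher there, and Cxcl16 is high already in PBS.

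All 8 genes rose with dsHMGB1, with LPS and with LPS/IFNγ over PBS. Of all genes tested, 23.3%, 26.7% and 29.0% were called higher and 24.2%, 36.2% and 31.2% lower in these 3 comparisons (edgeR quasi-likelihood F test, Benjamini-Hochberg adjusted p under 0.05). The median log2 fold change of the 8 genes was 9.15 with dsHMGB1, 10.85 with LPS and 7.94 with LPS/IFNγ, against -0.10, -0.21 and -0.13 over all genes tested. With frHMGB1, 2 of the 8 were called, Cxcl1 and Cxcl2, both higher, where 1.31% of the genes tested were called higher and 5.69% lower.

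Cxcl2, the most abundant CXCR2 ligand in all 5 conditions, had normalized counts of 69.2, 68.8 and 92.7 in PBS, 172, 214 and 196 with frHMGB1, 42705, 37448 and 35814 with dsHMGB1, 132091, 133225 and 131130 with LPS, and 16485, 18094 and 16796 with LPS/IFNγ. No library of any condition overlapped with another condition, and the order was LPS, dsHMGB1, LPS/IFNγ, frHMGB1 and PBS. Over PBS its log2 fold change was 9.01 ± 0.14 (SE, edgeR adjusted p = 1.22e-13) with dsHMGB1, 10.78 ± 0.14 with LPS and 7.83 ± 0.14 with LPS/IFNγ.

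Cxcl1, also known as KC and a mouse counterpart of the human GRO chemokines, stood at 9.05, 11.99 and 11.7 normalized counts in PBS and 26.7, 42.9 and 56.1 with frHMGB1. It reached 8431, 6838 and 6544 with dsHMGB1, 35058, 35711 and 36239.7 with LPS, and 2704, 3014 and 2909.75 with LPS/IFNγ. The 5 conditions did not overlap here either and followed the same order as Cxcl2, with each step past the test. The log2 fold change over PBS was 9.39 ± 0.26 with dsHMGB1, 11.69 ± 0.26 with LPS (adjusted p = 8.53e-13) and 8.06 ± 0.27 with LPS/IFNγ.

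Cxcl3, the neighbour of Cxcl2 in sequence, had 1.29, 2.52 and 12.9 normalized counts in PBS and 7.49, 12.3 and 0 with frHMGB1, which overlapped. It had 2538, 2349 and 2061 with dsHMGB1, 2392, 2296 and 2280.3 with LPS, and 154, 163 and 139 with LPS/IFNγ. The dsHMGB1 and LPS libraries overlapped, so that Cxcl3 was the CXCR2 ligand without a measured gap between these conditions. Its log2 fold change over PBS was 9.05 ± 0.38 with dsHMGB1 and 5.12 ± 0.39 with LPS/IFNγ (adjusted p = 2.47e-06). These values rest in part on PBS replicate 3, which held 11 of the 17 PBS counts, and without it they came to 10.24 and 6.30.

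Cxcl5, or LIX, is known mainly from epithelial cells and was the scarcest CXCR2 ligand in the stimulated cells. It had 1.29, 4.42 and 0 normalized counts in PBS, 0, 6.13 and 4.31 with frHMGB1, 23.1, 52.1 and 47.1 with dsHMGB1, 121, 128 and 144 with LPS, and 72.1, 88.4 and 51.2 with LPS/IFNγ. PBS and frHMGB1 overlapped, and so did dsHMGB1 and LPS/IFNγ. The log2 fold change over PBS was 4.22 ± 0.63 with dsHMGB1 (adjusted p = 0.000209), 5.90 ± 0.62 with LPS and 5.01 ± 0.63 with LPS/IFNγ. PBS replicate 2 held 7 of the 9 PBS counts, and without it these values were 5.64, 7.32 and 6.43.

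The CXCR3 ligands were sparse at rest, and Cxcl10, also called IP-10, was per kb the most abundant of the 8 genes with dsHMGB1 and LPS. It had 127, 336 and 98.5 normalized counts in PBS and 365, 330.2 and 193 with frHMGB1. These rose to 210039, 172970 and 179497 with dsHMGB1, 381307, 382516 and 383662 with LPS, and 279715, 278428 and 291129 with LPS/IFNγ. The PBS and frHMGB1 libraries overlapped, and the 3 stimulated groups did not overlap with them or with each other. The log2 fold change over PBS was 9.96 ± 0.35 with dsHMGB1, 10.99 ± 0.35 with LPS (adjusted p = 6.96e-10) and 10.56 ± 0.35 with LPS/IFNγ. PBS replicate 2 carried the highest resting value, and without it these became 10.69, 11.72 and 11.29.

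Cxcl9, or MIG, the chemokine most closely tied to interferon-γ by its textbook name (monokine induced by gamma interferon), had 18.1, 23.3 and 4.69 normalized counts in PBS and 12.8, 23.5 and 2.16 with frHMGB1. It reached 9973, 10414 and 10249 with dsHMGB1, 33463, 33602 and 30588 with LPS, and 464252, 448718 and 471024 with LPS/IFNγ. Each stimulated group stood clear of the others. The log2 fold change over PBS was 9.24 ± 0.24 with dsHMGB1, 10.92 ± 0.24 with LPS and 14.74 ± 0.24 with LPS/IFNγ (adjusted p = 6.75e-11).

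Cxcl11, or I-TAC, a high-affinity CXCR3 ligand, gave 0, 2 and 0 raw counts in PBS and 2, 0 and 0 with frHMGB1. Its normalized counts were 462, 365 and 343 with dsHMGB1, 2543, 2408 and 2020.1 with LPS, and 5971, 5699 and 6112 with LPS/IFNγ, with no overlap among these groups. With 2 counts in all of PBS a fold is loosely bounded. The ratio of depth-scaled counts to PBS was 772 with dsHMGB1 (95% exact interval from counting error, 213 to 6381), 4648 with LPS (1286 to 38389.5) and 11825 with LPS/IFNγ (3273 to 97652). The transcript is counted here under a gene whose reading frame the annotation gives as broken in this strain, so a count is not a measure of protein.

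Cxcl16 behaved unlike the others in starting high. It had 8525, 8262 and 19735 normalized counts in PBS, 11946, 12046 and 11668 with frHMGB1, 48366, 41411 and 44209 with dsHMGB1, 63882, 61871 and 64453 with LPS, and 61100.5, 60081 and 61694 with LPS/IFNγ. PBS replicate 3 stood at more than 2 times the other PBS libraries. The log2 fold change over PBS was 1.88 ± 0.26 with dsHMGB1 (adjusted p = 1.76e-05), 2.38 ± 0.26 with LPS and 2.32 ± 0.26 with LPS/IFNγ, and without PBS replicate 3 these were 2.41, 2.91 and 2.85. Per kb of exon it was the most abundant of the 8 genes at rest, at rank 565 in PBS, and ranked 159 to 169 in the 3 stimulated conditions.

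**Figure D3:**
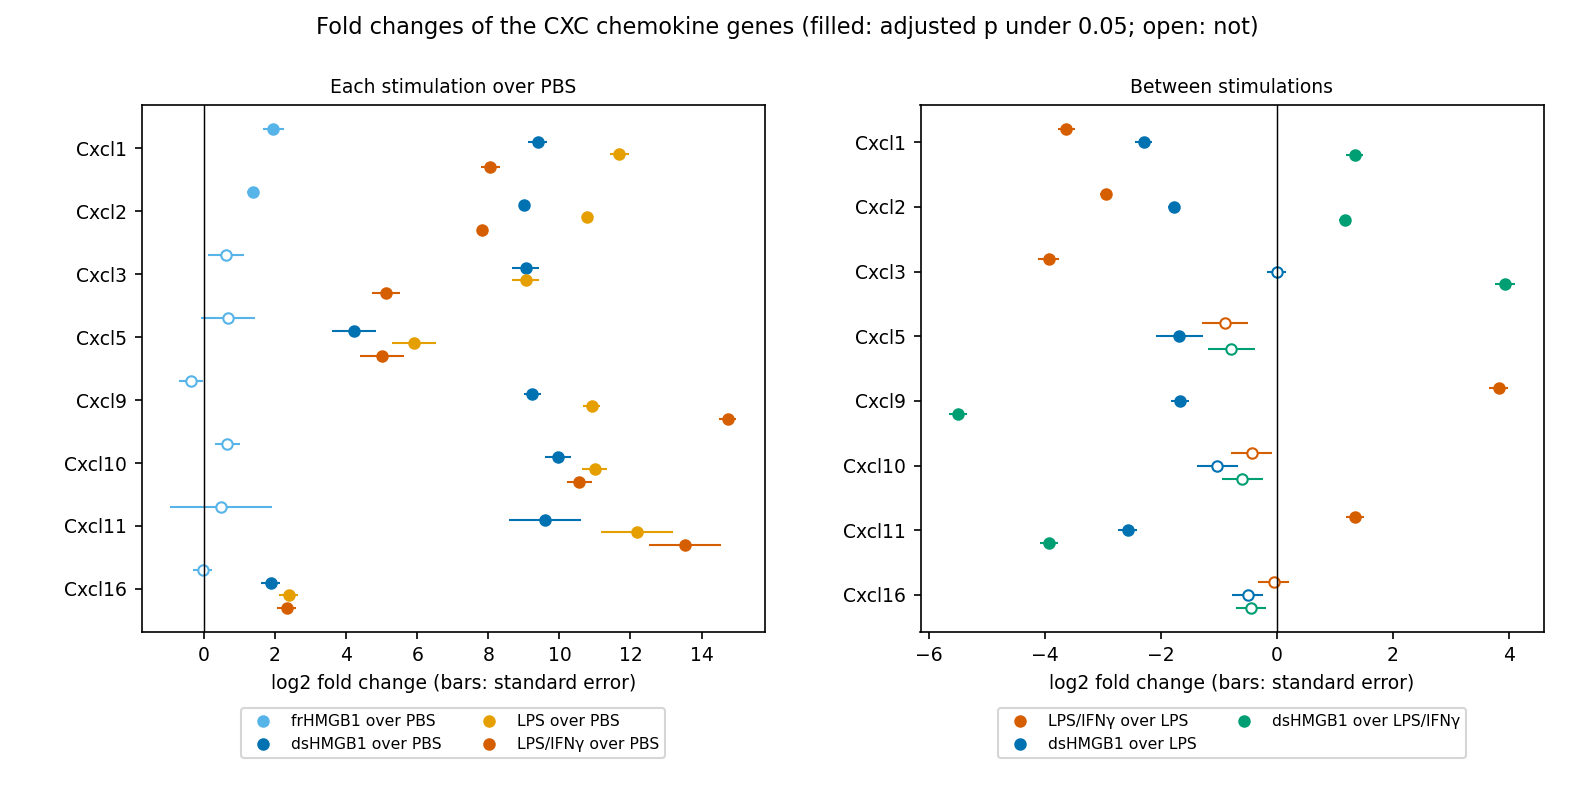
Log2 fold changes of the 8 genes (points, with standard error bars), each stimulation over PBS on the left and stimulations against each other on the right (filled points: adjusted p under 0.05). Cxcl1 and Cxcl2 are the filled frHMGB1 points, and for LPS/IFNγ over LPS the called points are Cxcl1, Cxcl2 and Cxcl3 left of 0 and Cxcl9 and Cxcl11 right of it.

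The frHMGB1 comparison asks whether the reduced form changes these genes at all. Cxcl1 rose by 1.95 ± 0.30 on the log2 scale (adjusted p = 0.000197) and Cxcl2 by 1.37 ± 0.15 (adjusted p = 1.36e-05), and in both genes all 3 frHMGB1 libraries stood above all 3 PBS libraries, as they did for 9.72% of all genes tested. The other 6 genes did not pass the test, with log2 fold changes of 0.61 for Cxcl3, 0.68 for Cxcl5, -0.38 for Cxcl9, 0.66 for Cxcl10, 0.49 for Cxcl11 and -0.03 for Cxcl16. When PBS and frHMGB1 were fitted without the other conditions, neither Cxcl1 (adjusted p = 0.0935) nor Cxcl2 (0.0561) passed, and over all 14 alternatives their adjusted p reached those values at most. Without PBS replicate 3, Cxcl16 turned to 0.51 and passed (adjusted p = 1.23e-05). That fit called 8.41% of all genes tested higher and 9.09% lower. Without PBS replicate 2, Cxcl10 passed at 1.39 (0.00187). The largest of these rises was small beside dsHMGB1. Between the 2 HMGB1 forms all 8 genes were higher with dsHMGB1, where 27.7% of all genes tested were called higher and 23.1% lower, from 1.91 ± 0.26 for Cxcl16 to 9.62 ± 0.29 for Cxcl9, with a median of 8.04 against 0.02 over all genes.

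Between LPS/IFNγ and LPS, genes of the 2 classes were called in opposite directions. With LPS/IFNγ, Cxcl9 and Cxcl11 were higher, where 16.3% of the genes tested were called higher, and Cxcl1, Cxcl2 and Cxcl3 were lower, where 9.36% were called lower. Cxcl9 rose by 3.83 ± 0.16 on the log2 scale (adjusted p = 4.24e-06), or 14.2 times in mean normalized count, and Cxcl11 by 1.35 ± 0.16 (adjusted p = 0.000443), or 2.55 times. The log2 difference was -3.63 ± 0.15 for Cxcl1 (adjusted p = 2.08e-08), a mean 12.4 times lower, -2.95 ± 0.11 for Cxcl2 (7.72 times lower) and -3.94 ± 0.18 for Cxcl3 (15.3 times lower). The median was -3.29 over the CXCR2 ligands and 1.35 over the CXCR3 ligands, beside 0.0026 over all genes tested.

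Cxcl10 did not pass the test here. Its log2 difference between LPS/IFNγ and LPS was -0.43 ± 0.35 (adjusted p = 0.457), with a 95% interval from -1.12 to 0.25. All 3 LPS/IFNγ libraries lay below all 3 LPS libraries, as for 29.1% of all genes tested, and with these 2 conditions fitted alone the difference of -0.42 passed (adjusted p = 4.50e-11), while the other 13 alternatives left it short of the threshold. Cxcl5 showed the same, at -0.90 ± 0.40 (adjusted p = 0.234) in the fit of all libraries and 0.00133 with the pair alone. Cxcl16 differed by -0.06 ± 0.26, with an interval from -0.57 to 0.46, and passed under none of the alternatives.

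The dsHMGB1 levels of Cxcl1 and Cxcl2 lay between those of LPS and LPS/IFNγ. Against LPS, 5 genes were lower and none higher with dsHMGB1, where 10.6% of all genes tested were called lower and 15.8% higher. The log2 difference was -2.58 ± 0.16 for Cxcl11, -2.29 ± 0.15 for Cxcl1, -1.77 ± 0.11 for Cxcl2 and -1.67 ± 0.16 for Cxcl9 (adjusted p from 1.98e-07 to 0.00248). Cxcl5 was called at -1.68 ± 0.40 (adjusted p = 0.0281), but leaving out any 1 library of either condition ended that call (0.0507 to 0.104). Cxcl3 stood level at -0.00 ± 0.16 (interval -0.33 to 0.32), Cxcl16 at -0.51 ± 0.26, and Cxcl10 at -1.03 ± 0.35 just short of the threshold (adjusted p = 0.0537), which it passed under 5 of 14 alternatives. Cxcl16 passed it under 1, the pair fitted alone (adjusted p = 0.000412).

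Between dsHMGB1 and LPS/IFNγ, 5 genes were called. Cxcl1, Cxcl2 and Cxcl3 were higher with dsHMGB1, by 1.34 ± 0.15, 1.17 ± 0.11 and 3.93 ± 0.18 on the log2 scale, where 16.5% of all genes tested were called higher. Cxcl9 and Cxcl11 were lower, by -5.50 ± 0.16 and -3.93 ± 0.16, where 16.7% were called lower. In mean normalized counts Cxcl9 was 45.2 times and Cxcl11 15.2 times lower with dsHMGB1. Cxcl5 (-0.78 ± 0.40), Cxcl10 (-0.59 ± 0.35) and Cxcl16 (-0.45 ± 0.26) did not pass in the fit of all libraries. With the pair fitted alone, Cxcl10 (adjusted p = 0.000114) and Cxcl16 (0.000391) passed. The comparisons among stimulations share libraries and are not independent of each other.

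The balance of the classes was summed per library as normalized counts per kb of exon, CXCR3 ligands over CXCR2 ligands. The log2 ratio was 0.66, 1.88 and -0.27 in PBS, 0.74, 0.22 and -0.56 with frHMGB1, 1.90, 1.84 and 1.957 with dsHMGB1, 1.12, 1.11 and 1.12 with LPS, and 4.88, 4.71 and 4.88 with LPS/IFNγ. The 3 stimulated groups were clear of each other, and the PBS libraries ranged across the LPS and the lowest dsHMGB1 values. In linear terms the CXCR3 ligands outweighed the CXCR2 ligands 3.73 ± 0.15 times with dsHMGB1 (SD, n = 3), 2.17 ± 0.0083 times with LPS and 28.4 ± 1.88 times with LPS/IFNγ. From LPS to LPS/IFNγ the CXCR2 sum went from 83660.0 ± 468 to 9896 ± 496 per kb and the CXCR3 sum from 181252 ± 329.9 to 280230.0 ± 6588.

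Within each class 1 gene set the sum. Cxcl2 made up 76.4% of the CXCR2 sum with LPS and 83.7% with LPS/IFNγ, on average, and Cxcl10 made up 95.9% of the CXCR3 sum with dsHMGB1 and 93.7% with LPS. In LPS/IFNγ the lead passed to Cxcl9, at 54.3% to 55.03% against 44.4% to 45.1% for Cxcl10. The size and sign of the ratio depend on these genes. Without Cxcl10 and Cxcl2 the mean log2 ratio was -0.38 with dsHMGB1 and -0.79 with LPS, where it turned below 0, and 6.58 with LPS/IFNγ, so that the 3 stimulations kept their order. Cxcl9, the leading CXCR3 ligand in LPS/IFNγ, was kept in that ratio.

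**Figure D4:**
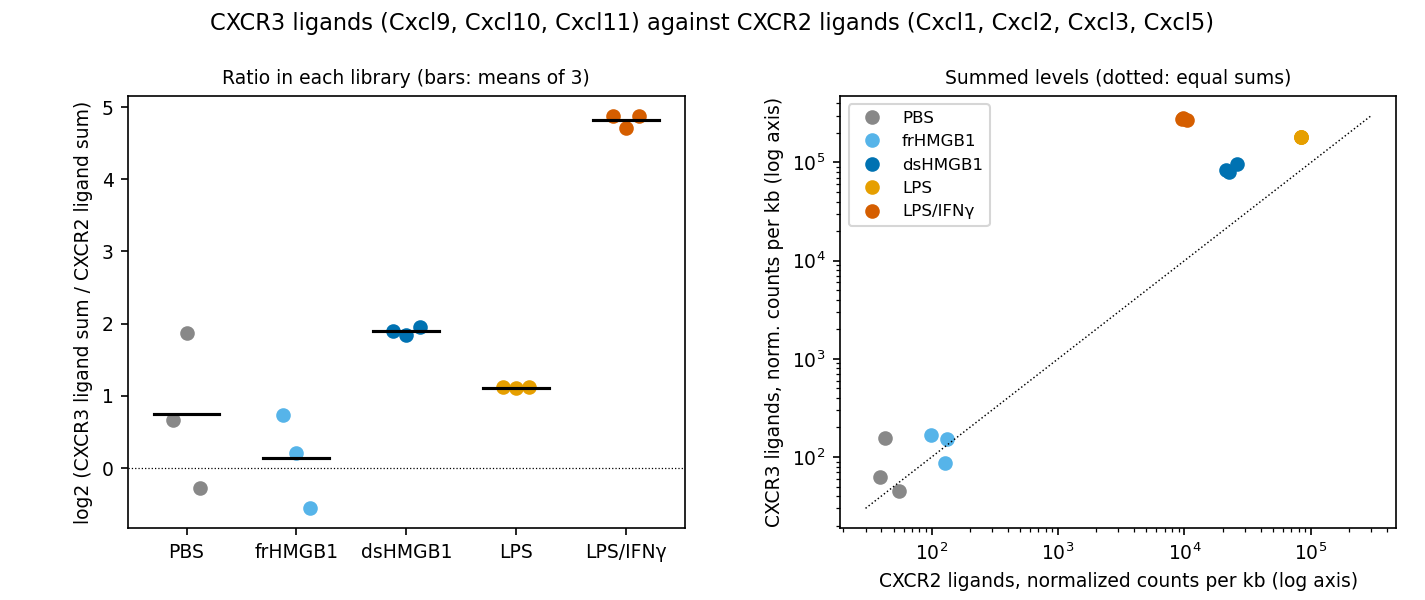
Left, the log2 ratio of summed CXCR3 to summed CXCR2 ligands in each library (bars: means of 3). Right, the sums in normalized counts per kb on log axes, with the line of equal sums dotted. LPS/IFNγ stands apart at 4.71 to 4.88 on the left, with a lower CXCR2 sum and a higher CXCR3 sum than LPS on the right.

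The 7 receptors of CXC chemokines looked at were scarce in these macrophages apart from Cxcr4. Cxcr1 and Cxcr2, the neutrophil receptors, had 22 and 43 counts over all 15 libraries and were not tested. Cxcr3 had mean normalized counts of 77.5 in PBS, 100.0 with frHMGB1, 28.5 with dsHMGB1, 64.7 with LPS and 77.1 with LPS/IFNγ, and was lower with dsHMGB1 than with PBS by -1.46 on the log2 scale (adjusted p = 0.00393). Cxcr6, the receptor of CXCL16, ran from 1.503 in PBS to 14.8 with LPS/IFNγ (log2 fold change 3.13, adjusted p = 0.00223), Ackr3, a scavenging receptor of CXCL11 and CXCL12, from 0.431 to 21.3 (5.42), and Cxcr5 from 1.21 to 12.1 (3.47). Cxcr4, the CXCL12 receptor, was the abundant one and had log2 fold changes of -3.54, -4.73 and -5.50 over PBS with dsHMGB1, LPS and LPS/IFNγ, from a mean 17352 in PBS to 1493, 653 and 384. Of the 7 receptors 5 were tested, and 1, 2 and 3 of them rose and 2, 1 and 1 fell over PBS in dsHMGB1, LPS and LPS/IFNγ. Over all genes tested, 23.3%, 26.7% and 29.0% were called higher and 24.2%, 36.2% and 31.2% lower in these comparisons. Cxcr5, Cxcr6 and Ackr3 passed the filter on low counts only through stimulated libraries, so a difference from PBS was built into their passing. Without PBS replicate 3, Cxcr5 passed with dsHMGB1 as well (3.16, adjusted p = 0.0468), where 29.8% of all genes were called higher. It stood at 4.23 with LPS/IFNγ in that fit.

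Of 7 other CXC ligands of the mouse 3 were tested, and none was called higher with any stimulation over PBS in the full set of libraries. Called higher with dsHMGB1, LPS and LPS/IFNγ were 23.3%, 26.7% and 29.0% of all genes tested, and called lower 24.2%, 36.2% and 31.2%. Cxcl14, a ligand of uncertain receptor, was lower in all 3, at -0.94, -0.73 and -0.92 with dsHMGB1, LPS and LPS/IFNγ. Cxcl12, the ligand of CXCR4, differed from PBS by -0.38, 0.14 and 0.025 in dsHMGB1, LPS and LPS/IFNγ, none past the test. Pf4, a platelet chemokine gene, had normalized counts of 95.1 to 541 in PBS, the highest in replicate 3, and means of 146 with frHMGB1, 479 with dsHMGB1, 267 with LPS and 139 with LPS/IFNγ. Its log2 fold changes over PBS of 0.97, 0.13 and -0.82 in the 3 stimulations did not pass. Without PBS replicate 3 they were 2.28 ± 0.17 (adjusted p = 1.23e-09), 1.43 ± 0.17 and 0.49 ± 0.18 (adjusted p = 0.0310), with 0.57 ± 0.18 for frHMGB1, and all 4 passed. Cxcl12 was then called lower with dsHMGB1 (-0.55) and frHMGB1 (-0.69). That fit called 29.8%, 32.9%, 33.3% and 8.41% of all genes higher with dsHMGB1, LPS, LPS/IFNγ and frHMGB1. It called 29.0% lower with dsHMGB1 and 9.09% with frHMGB1. Cxcl13, Cxcl15, Cxcl17 and Ppbp had 1 to 5 counts over all libraries.

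Of 6 genes for proteases that trim or shed chemokines 5 were tested, and 2 rose with dsHMGB1, 3 with LPS and 3 with LPS/IFNγ. Across all genes tested, 23.3%, 26.7% and 29.0% were called higher. Adam17, one of the sheddases of membrane proteins, rose by 1.72 with dsHMGB1 (adjusted p = 2.24e-07), 1.36 with LPS and 0.74 with LPS/IFNγ. Mmp9, a gelatinase that can cleave CXC chemokines, rose by 1.90 with dsHMGB1, 0.72 with LPS and 0.56 with LPS/IFNγ. Mmp12, the macrophage elastase, was called with LPS (0.79) and LPS/IFNγ (0.68). Adam10, the protease best known for shedding CXCL16, stood at 0.10, -0.19 and 0.02 in dsHMGB1, LPS and LPS/IFNγ and passed in none. Mmp8, the neutrophil collagenase, was lower with LPS (-0.49), where 36.2% of all genes tested were called lower. Without PBS replicate 3, Adam10 was called lower with LPS/IFNγ (-0.31), LPS (-0.52) and dsHMGB1 (-0.23), Mmp8 also with dsHMGB1 (-0.46) and LPS/IFNγ (-0.29), and Adam17 was called higher with frHMGB1 (0.21). That fit called 34.4%, 38.3% and 29.0% of all genes lower with LPS/IFNγ, LPS and dsHMGB1, and 8.41% higher with frHMGB1.

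All 8 genes of the NF-κB side rose with dsHMGB1, LPS and LPS/IFNγ, where 23.3%, 26.7% and 29.0% of all genes tested were called higher. The median log2 fold changes were 3.24, 3.91 and 4.26. With LPS, Nfkbiz, an IκB family co-activator, rose by 7.41, Nfkbia, which encodes the inhibitor IκBα, by 5.30, and Nfkb2 by 4.86. Against LPS, dsHMGB1 gave lower values for 6 of them and higher for none, where 10.6% of all genes tested were called lower. With frHMGB1, 5 rose, where 1.31% of all genes tested did, among them Nfkbiz (1.36, adjusted p = 0.00197) and Nfkbia (0.67, adjusted p = 0.00245). Nfkb1 joined them without PBS replicate 3 (0.20, adjusted p = 0.0444), where 8.41% of all genes were called higher. Between LPS/IFNγ and LPS, 4 were lower, where 9.36% of all genes tested were, and none higher, with Nfkbia at -0.81 and Nfkbiz at -0.77.

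Of 10 genes of the interferon side, 9 rose with dsHMGB1, 9 with LPS and 8 with LPS/IFNγ over PBS, and none passed with frHMGB1. Among all genes tested, 23.3%, 26.7% and 29.0% were called higher with these 3 stimulations. Without PBS replicate 3, 3 passed with frHMGB1, where 8.41% of all genes were called higher, namely Irf7 (0.70), Irf1 (0.22) and Ifngr1 (0.20). In that fit all 10 rose with LPS, where 32.9% of all genes did, and a second gene, Ifngr1 (-0.21), was lower with LPS/IFNγ. Ifnb1, interferon-β itself, rose by 8.30 with dsHMGB1, 10.20 with LPS and 11.03 with LPS/IFNγ. It passed the filter on low counts only through stimulated libraries, with 6 counts in PBS and 4 with frHMGB1. Socs1, a feedback inhibitor of interferon signalling, rose by 7.01, 7.64 and 8.44. Between LPS/IFNγ and LPS, 3 were higher and 4 lower, where 16.3% of all genes tested were called higher and 9.36% lower. Irf8, an interferon-γ-induced transcription factor of myeloid cells, was higher by 2.07 (adjusted p = 2.58e-09), Ifnb1 by 0.83 and Socs1 by 0.81, while Irf7 (-0.92), Irf9 (-0.90), Ifngr1 (-0.82) and Ifngr2 (-0.51) were lower.

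Among 5 genes for proteins that control message decay, 3 rose and 2 fell in each of dsHMGB1, LPS and LPS/IFNγ over PBS. The shares of all genes tested were 23.3%, 26.7% and 29.0% called higher and 24.2%, 36.2% and 31.2% called lower. Zfp36, or tristetraprolin, binds AU-rich messages and speeds their loss, and Zc3h12a, or Regnase-1, cuts stem loops of inflammatory messages. Zc3h12a rose by 2.16, 3.94 and 3.40 and Zfp36 by 1.90, 3.00 and 1.28, while Zfp36l1 stood at -2.38, -2.28 and -2.76. With frHMGB1, Zfp36 (0.44) and Zc3h12a (0.58) rose, where 1.31% of all genes tested were called higher. Between LPS/IFNγ and LPS, Zfp36 was lower by -1.72 and Zc3h12a by -0.54, and Elavl1, a stabiliser of AU-rich messages, was higher by 0.25. The list had 1 gene called higher and 2 lower there, where 16.3% of all genes tested were called higher and 9.36% lower.

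Of 6 genes of the lipopolysaccharide receptor pathway, none passed with frHMGB1, 3 rose with dsHMGB1, 5 with LPS, and with LPS/IFNγ 5 rose and 1 fell. In these 3 stimulations 23.3%, 26.7% and 29.0% of all genes tested were called higher, and 31.2% lower with LPS/IFNγ. Cd14, the co-receptor, rose by 2.72 with dsHMGB1, 3.10 with LPS and 1.33 with LPS/IFNγ, and Myd88, the adaptor, by 2.17, 2.48 and 2.53. Tlr4 itself was lower with LPS/IFNγ (-0.71). Without PBS replicate 3, Cd14 was called higher with frHMGB1 (0.28) and the adaptor gene Ticam1 lower with dsHMGB1 (-0.20). That fit called 8.41% of all genes higher with frHMGB1 and 29.0% lower with dsHMGB1. Between LPS/IFNγ and LPS, Cd14 was lower by -1.77 and Tlr4 by -0.90. The list had 2 genes called lower and 0 higher there, where 9.36% of all genes tested were called lower and 16.3% higher.

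**Figure D5:**
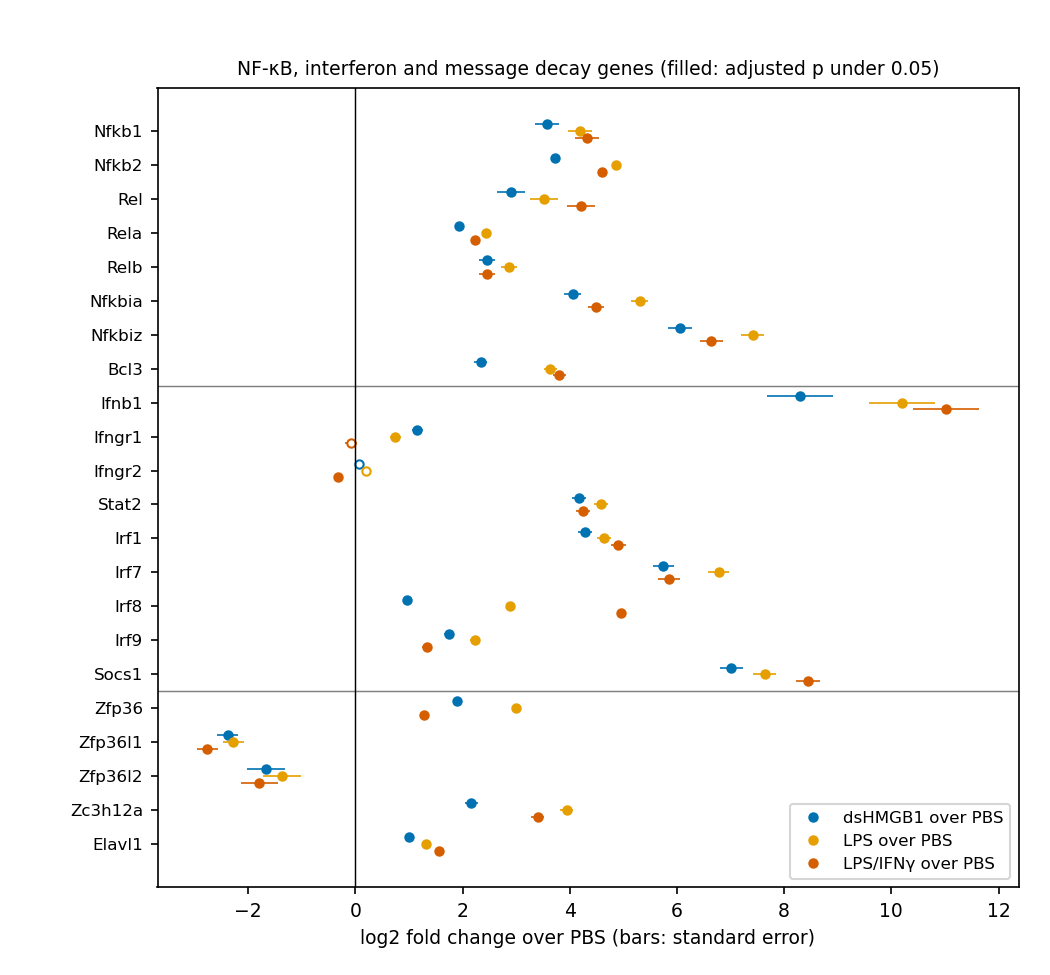
Log2 fold changes over PBS of genes of the NF-κB side (top block), the interferon side (middle) and message decay (bottom), with standard error bars (filled points: adjusted p under 0.05; colours: dsHMGB1 blue, LPS yellow, LPS/IFNγ orange). All NF-κB points lie right of 0, Irf8 is spread from 0.96 to 4.95, and Zfp36l1 and Zfp36l2 lie left of 0.

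The genes around the clusters were counted too. Within 100 kb of a member lie 37 other annotated genes, of which 16 were tested. With dsHMGB1 6 of the 16 rose and 1 fell over PBS, with LPS 9 rose and 2 fell, and with LPS/IFNγ 6 rose and 2 fell. The shares called higher were 37.5%, 56.2% and 37.5%, beside 23.3%, 26.7% and 29.0% of all genes tested. Those called lower were 6.25%, 12.5% and 12.5%, beside 24.2%, 36.2% and 31.2%. With 16 genes these shares are coarse, and their difference was not tested. Without PBS replicate 3, 10, 12 and 9 of the 16 rose, where 29.8%, 32.9% and 33.3% of all genes did. Pf4, which lies there, and Psmb6, a proteasome subunit gene that was 1.42, 2.06 and 1.21 above PBS in that fit, were among them. Between LPS/IFNγ and LPS 1 was higher and 3 lower, where 16.3% of all genes tested were called higher and 9.36% lower. Near the CXCR3 ligands, Sdad1 rose by 1.37 with dsHMGB1 and by 1.55 with LPS/IFNγ, and Nup54 by 1.39 and 2.31, beside 9.24 and 14.74 for Cxcl9.

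Reads can be shared between some of these genes. Of all 50-base windows of the transcripts, Cxcl2 shares 5.84% with Cxcl3 and Cxcl1 shares none with any gene. Art3 runs antisense to Cxcl10 and covers 3.59% of its windows, and Zmynd15 antisense to Cxcl16 covers 16.9%. For Cxcl11, 40.4% of the windows (1533) are shared with other annotated genes, 9 of them on the same strand. Among these genes is the pseudogene Gm2673, which overlaps Cxcl11 on the opposite strand and was listed at 0 counts. The kit marks strand, but the strand setting of the counting is not given in the sources used here. Mean normalized counts of Zmynd15 were 197 in PBS, 868 with dsHMGB1, 906 with LPS and 605 with LPS/IFNγ, and those of Art3 were 0, 2.20, 12.6 and 22.0, small beside Cxcl16 and Cxcl10.

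The patterns across the 15 libraries set Cxcl3 and Cxcl9 at the extremes. As a description of log2 normalized counts, Pearson's r between members was highest for Cxcl1 and Cxcl2 (0.998) and lowest for Cxcl3 and Cxcl9 (0.780), with 0.987 for Cxcl9 and Cxcl11. The libraries fall into resting and stimulated groups, which raises every such value. Among 10102 protein-coding genes with a mean normalized count of 100 or more, the most alike included Cxcl2 for Cxcl1, Rasgrp1 for Cxcl3 (0.992), Raet1e for Cxcl5 (0.975), Tgm2 for Cxcl9 (0.994), Ifit2 for Cxcl10 (0.999), Prr5l for Cxcl11 (0.997) and Bcl2a1b for Cxcl16 (0.997). Between 82 and 1005 genes exceeded 0.95 for a single member, fewest for Cxcl3 and most for Cxcl11.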

How the data were processed

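RNA of 15 BMDM cultures was sequenced with a stranded mRNA kit as paired reads. The values are raw read counts per Ensembl gene in 1 table, deposited by the authors, who per the labels and methods used CASAVA and STAR with GRCm38. How the reads were counted, and on which annotation, is not stated there. The authors compared conditions in DESeq2. All columns had a sample (0 without).

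Counts were tested with edgeR 4.0.16 (TMM, filterByExpr with a minimum count of 10, quasi-likelihood F test on all 15 libraries, Benjamini-Hochberg, called at adjusted p under 0.05) in R 4.3.3, after tests on simulated data. Normalized counts, log2 fold changes and their standard errors came from DESeq2 1.42.0 without shrinkage. Of 51763 genes, 51661 matched GENCODE M21, and 16919 were tested. Exon lengths are unions of exons, and promoter sequences are RefSeq (GRCm38.p6), matched by symbol for 5 of 8 members. The members and lists were chosen with earlier results of these data known. Genes named are all 8 members, all receptors, at most 4 of each pathway list past the test, the 3 most correlated genes a member, of which the first is printed for 7 members, and neighbours within 100 kb. Elavl1, Adam10, Tlr4, Cxcl12, Pf4, Nup54, Sdad1, Psmb6, Irf1, Nfkb1, Ticam1 and Art3 were named after their values were seen. Intervals cover counting or between-library error only. The values of 1 gene of the interferon list and of 1 correlated gene are not reported here; the counts of the list include its gene.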

Additional observations from a re-analysis of the deposited data

How the results depend on the processing

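Up to 14 alternatives were computed for each comparison: DESeq2, RLE normalization, no filter, at least 1 CPM in 3 libraries, protein-coding genes only (which drops Cxcl11), a test of a fold above 2, the compared pair fitted alone, the replicate number as a block, and 1 library of the pair left out in turn. Of 885 recomputed fold changes of the 8 genes, 849 kept their direction and side of the threshold, 13 lost the call, 11 gained one and 12 turned sign. The rises over PBS with dsHMGB1, LPS and LPS/IFNγ stayed past the threshold in every alternative that tested the gene. The members called came to 3 in dsHMGB1 against LPS and 3 in dsHMGB1 against LPS/IFNγ under the test of a fold above 2, and to 0 in frHMGB1 against PBS with the pair alone, where 5 of the 8 were tested. They came to 7 with the pair alone in dsHMGB1 against LPS, dsHMGB1 against LPS/IFNγ and LPS/IFNγ against LPS. With libraries left out the counts were 2 to 3 for frHMGB1 against PBS, 4 for dsHMGB1 against LPS and those of the full set elsewhere. The resting counts of Cxcl3, Cxcl5 and Cxcl11 limit the precision of their folds.

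The sign changes lay in frHMGB1 against PBS and in genes level between stimulations. With libraries left out, the frHMGB1 change ran from -0.21 to 1.81 for Cxcl3, -0.031 to 2.10 for Cxcl5, -1.19 to 0.096 for Cxcl9, -1.37 to 2.15 for Cxcl11 (-0.21 without PBS replicate 1) and -0.24 to 0.51 for Cxcl16, with 0.024 for Cxcl16 under the replicate block. Cxcl3 in dsHMGB1 against LPS ran from -0.075 to 0.071 with libraries left out (0.012 without LPS replicate 1), and was 0.023 with the pair alone and 0.046 over protein-coding genes, which also gave 0.019 for Cxcl16 in LPS/IFNγ against LPS. The cause was not tested. The gene lists and neighbours were recomputed without PBS replicate 3, a choice made after seeing the data. The replicate block took all genes called from 1185 to 1015 for frHMGB1 and from 4348 to 4048 for LPS/IFNγ against LPS, and changed no call of the 8 genes. Same-numbered libraries did not deviate together (r from -0.386 to 0.375, and 6 of 15 libraries correlated best with their own number), so the block is not a pairing by design.

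Over all genes, frHMGB1 against PBS moved from 1185 called to 716 at 1 CPM, 634 above a fold of 2, 70 over protein-coding genes, 189 with the pair alone and 3035 without PBS replicate 3. The test of a fold above 2 left 2657 of 8028, 5229 of 10636 and 4967 of 10198 for dsHMGB1, LPS and LPS/IFNγ over PBS, 931 of 4461, 1142 of 5621 and 1093 of 4348 for dsHMGB1 against LPS, dsHMGB1 against LPS/IFNγ and LPS/IFNγ against LPS, and 3396 of 8593 between the HMGB1 forms. The pair alone gave 4747, 6985, 8580 and 8999 for dsHMGB1 against PBS, against LPS and against LPS/IFNγ and for LPS/IFNγ against LPS.

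Over all 15 libraries together, Cxcl10 and Cxcl2 were the most counted ligands of their classes. Without them the log2 class ratio was -0.96 for PBS, -3.06 for frHMGB1, -0.38 for dsHMGB1, -0.79 for LPS and 6.58 for LPS/IFNγ. In LPS/IFNγ alone Cxcl9 was counted more than Cxcl10, and a ratio without Cxcl9 was not computed. With no division by length the ratio was 2.04 for dsHMGB1, 1.29 for LPS and 5.21 for LPS/IFNγ, and with the longest transcript 1.13 for LPS.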
